A study of Mus musculus with 8 samples.

Results

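The TRAV6 family is a set of related V segments, some pairs of them near-identical, that open a large share of mouse T-cell receptor (TCR) α-chains. The clonotypes described here are all those of 8 α-chain libraries whose V segment was named TRAV6, TRAV6D or TRAV6N followed by a copy number. The copy that can also join δ-chain segments, TRAV6-7-DV9, was left out. The rule found 5199 of 53249 clonotypes, with 7307 of 80000 reads. A clonotype is a distinct CDR3, as nucleotides, with its V and J names, and the CDR3 is the loop of the receptor made where V meets J. Members were chosen by the V name that the aligner gave each clonotype, with no use of reads, CDR3, TRAJ or treatment group.

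Cells came from 8 female C57BL/6 mice aged 6 to 8 weeks, each bearing B16F10 melanoma and each with 1 α-chain library. The 3 CTX mice received 300 mg/kg cyclophosphamide (CTX), which depletes lymphocytes, on day 3. On day 5 they were given Thy1.1 Pmel-1 cells, whose transgenic receptor sees the melanoma antigen gp100, and recombinant human IL-2. The 5 CTX/CD4 mice received all of these and, weekly from day 10 for 3 weeks, 200 μg of the anti-CD4 antibody GK1.5. On day 25, CD8+ cells negative for Thy1.1 (endogenous T cells, en-T) were sorted from inguinal lymph nodes and spleen, so the transferred cells were gated out. Each library held 10000 reads after down-sampling by the authors, spread over 5043 to 7695 clonotypes. A TCR library holds no CD8 or other marker genes, so the sort could not be checked by them. The invariant α-chain of NKT cells, TRAV11 with TRAJ18, had 2 to 25 reads per library and that of MAIT cells, TRAV1 with TRAJ33, had 0 to 6. Reads were made from RNA, so more cells of a clone and more RNA per cell cannot be told apart.

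The TCR α-chain is built in the thymus by joining 1 of many V segments to 1 of many J segments. Bases can be trimmed from either end and others added at the joint, and the cell can join a more distant pair again if its first receptor fails selection. In the mouse the V region has been duplicated within the locus, which left TRAV6 copies marked D and N beside the unmarked ones. The start of the CDR3 is written in the V copy and its end in the J segment, so a joint with no added base is encoded by the genome alone.

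The CDR3 start of each copy is shown because it decides how far copies can be told apart. Each line gives the last 14 bases of a V segment in GRCm38 (GENCODE vM21 annotation, plus strand), from the conserved cysteine codon, and capitals mark bases that differ from TRAV6N-7.
TRAV6N-7: tgtgctctgggtga
TRAV6-1: tgtgTtctgggtga
TRAV6D-3: tgtgctAtgAgtga
TRAV6-3: tgtgctAtgAgAga
TRAV6-4: tgtgctctggTtga
TRAV6-5: tgtgctctgAgtga
TRAV6N-6: tgCgctctgAgtga
These bases lie at chr14:53319271-53319284 for TRAV6N-7 and at chr14:52638949-52638962 for TRAV6-1, at the end of the second of 2 annotated exons. TRAV6D-6, TRAV6D-7, TRAV6N-5 and TRAV6-6 share the start of TRAV6N-7. TRAV6-2 and TRAV6D-5 share that of TRAV6-1, and TRAV6D-4 shares that of TRAV6-4. Over the last 280 germline bases, TRAV6D-6 and TRAV6-6 were identical, as were TRAV6D-7 and TRAV6N-7, while TRAV6N-5 and TRAV6-5 differed at 1 base.

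The names of the copies were therefore uncertain for part of the family. Over the first 10 bases, 1243 of the 1308 clonotypes named TRAV6D-6 began as their own germline copy does. Only 19.9% of those named TRAV6N-5 and 42.4% of those named TRAV6D-7 did so, and 68.7% and 48.4% of them began as another TRAV6 copy does. Of the 378 CDR3 nucleotide sequences found in at least 2 mice, 240 carried at least 2 copy names. The copy left out, TRAV6-7-DV9, has the start of TRAV6-5, and 194 of the 403 clonotypes named TRAV6D-7 began in that way. Values by copy are given as named. Results that pool the copies do not depend on names within the family, but they do depend on the names that set TRAV6-7-DV9 and other families apart. Of the 4625 distinct TRAV6 CDR3 nucleotide sequences, 21 were also found under TRAV6-7-DV9 and 169 under another V family.

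TRAV6 supplied 8.01% to 8.61% of α-chain reads in the CTX mice and 8.02% to 10.84% in the CTX/CD4 mice. The means were 8.32% ± 0.301 (SD, n = 3) and 9.62% ± 1.07 (SD, n = 5), and the groups overlapped (two-sided exact Mann–Whitney test, p = 0.143). As a share of clonotypes, TRAV6 made up 9.07%, 8.999% and 9.10% in CTX mice 1 to 3 and 9.90%, 11.1%, 9.60%, 9.53% and 11.1% in CTX/CD4 mice 1 to 5. Each CTX/CD4 mouse was above each CTX mouse. The means were 9.06% ± 0.0537 and 10.2% ± 0.796, with p = 0.0357 by the same exact test, the smallest that 3 mice against 5 allow, and p = 0.0893 after adjustment over the 5 comparisons between groups. Of 28 V families with enough clonotypes, TRAV6 was the 1 whose groups were separated upward (3.57%), and the family was chosen with results of these data known. By the exact permutation test of the means, p was 0.0714.

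TRAV6D-6 was the most used name, with 203, 187 and 270 reads in the CTX mice and 309, 263, 224, 235 and 264 in the CTX/CD4 mice. TRAV6N-7 followed, with 147, 103 and 192 against 189, 133, 275, 147 and 250 reads. Both ranges overlapped between the groups, and the names held 26.8% and 19.7% of TRAV6 reads. TRAV6-6 had 97, 124 and 77 reads against 71, 225, 109, 102 and 74, so CTX/CD4 mouse 2 lay far above the rest. Its high count came from many clonotypes: TRAV6-6 took 56.1% of the clonotypes named TRAV6-6 or TRAV6D-6 in that mouse and 24.4% to 43.4% in the others. As these copies are identical over 280 bases, their sum is the safer value, at 300, 311 and 347 reads against 380, 488, 333, 337 and 338. The least used copies were TRAV6D-4, with 78 reads in all mice together, TRAV6D-5 with 92 and TRAV6-4 with 97. All 14 copies passed the filter of 10 reads in 3 mice.

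**Figure D1:**
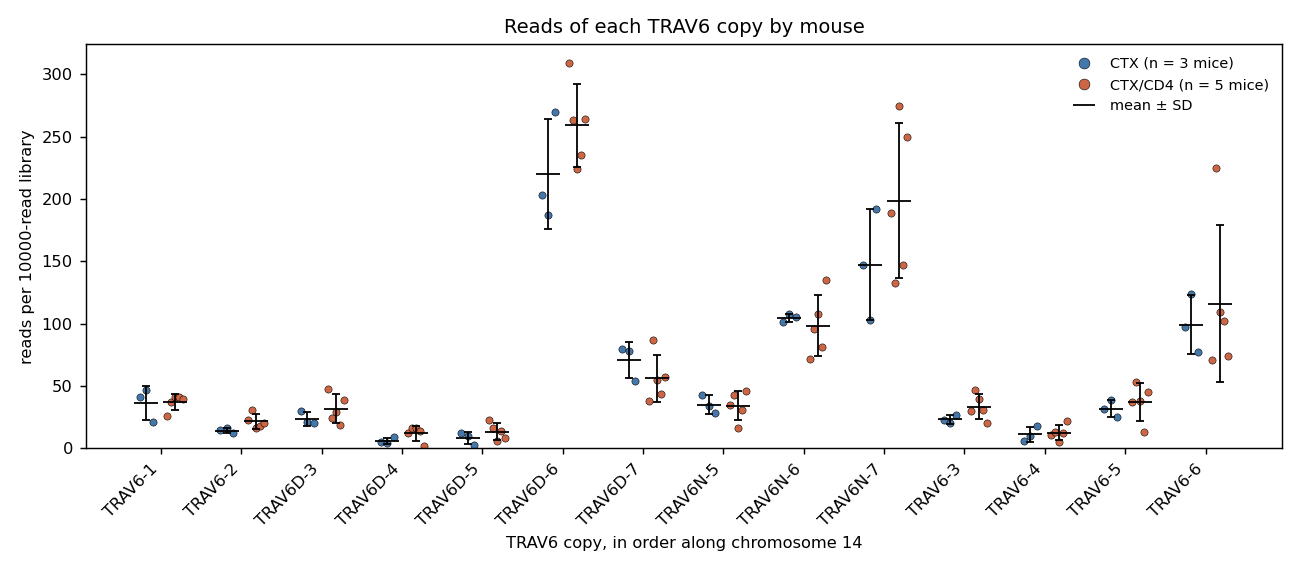
Reads of each TRAV6 copy (y axis, reads per library) for each mouse, with copies in their order on chromosome 14 (x axis). Points are mice and black marks are group means ± SD. The means of TRAV6D-6 and TRAV6N-7 stand above those of the other copies in both groups, though points of single mice overlap. The highest TRAV6-6 point, 225 reads, is CTX/CD4 mouse 2.

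No copy passed the test between the groups. With edgeR's quasi-likelihood test on all 103 V segments, 0 of the 14 copies had an adjusted p under 0.05, against 0% of all segments, and 0 copies but 6 of the 103 segments had an unadjusted p under that value. DESeq2 also called 0. The groups were separated in 0 of the 14 copies, against 0.971% of all segments separated upward and 4.85% downward. The log2 fold change (CTX/CD4 over CTX) was largest for TRAV6D-4, at 1.00 ± 0.62 (SE, adjusted p = 0.743 by edgeR), whose reads were 5, 4 and 9 against 12, 16, 16, 14 and 2. It was lowest for TRAV6D-7, at −0.31 ± 0.28 (SE). Summed with TRAV6N-7, identical to TRAV6D-7 over 280 bases, the reads were 227, 181 and 246 against 227, 220, 330, 191 and 307. Of the 14 copies 11 had a positive fold change, with a median of 0.24 against 0.04 over all segments.

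TRAV6 joined 43 TRAJ segments, and its partners lay farther from the V region than those of other families. J segments are numbered downward with distance from the V segments, so a lower mean number is a more distant partner. The mean TRAJ number was 29.0 ± 0.814 (SD, n = 8 mice) for TRAV6 clonotypes and 30.8 ± 0.793 for the others, lower in 8 of 8 mice. Copies as named lay on both sides of the others. Pooled over mice, means were 31.9 for TRAV6D-6, 32.3 for TRAV6-6, 31.5 for TRAV6-5 and 35.1 for TRAV6D-7. They were 24.0 for TRAV6N-6, 24.1 for TRAV6-1 and 24.9 for TRAV6N-7, so the family value does not describe each copy as named. TRAV6D-7 and TRAV6N-7 are identical over 280 bases, and 194 of the 403 clonotypes named TRAV6D-7 began as TRAV6-5 does. The within-mouse difference of −1.77 ± 0.491 passed the exact sign-flip permutation test (p = 0.00781, the smallest that 8 mice allow, and p = 0.0130 adjusted over the 5 comparisons within mice). With the left-out TRAV6-7-DV9 copy added to the family it was −0.648 (exact p = 0.00781), so the size of the difference depended on how that copy was named. Against the TRAV7 family alone the difference was in the other direction, at 1.28 (exact p = 0.00781), so TRAV7 used still more distant segments. No effect of group on this difference was detected, at −1.89 ± 0.684 in CTX and −1.70 ± 0.414 in CTX/CD4 mice (two-sided exact Mann–Whitney test, p = 0.571).

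Of the 43 segments, 4 took a larger share of TRAV6 clonotypes than of other clonotypes (9.3%) and 4 a smaller one (9.3%), at an adjusted p of 0.0420 from the exact sign-flip test, a comparison chosen after the data were seen. TRAJ23 held 6.40% ± 0.970 of TRAV6 clonotypes and 4.36% ± 0.218 of the others. TRAJ30 held 5.92% ± 0.797 against 4.49% ± 0.314. TRAJ17 and TRAJ16 were the other segments used more, at 2.97% against 1.95% and 1.60% against 1.03%. The segments used less were TRAJ58, TRAJ57, TRAJ56 and TRAJ45, of which the first 3 are the used segments nearest the V region, and TRAJ58 held 0.418% of TRAV6 clonotypes against 1.41%.

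**Figure D2:**
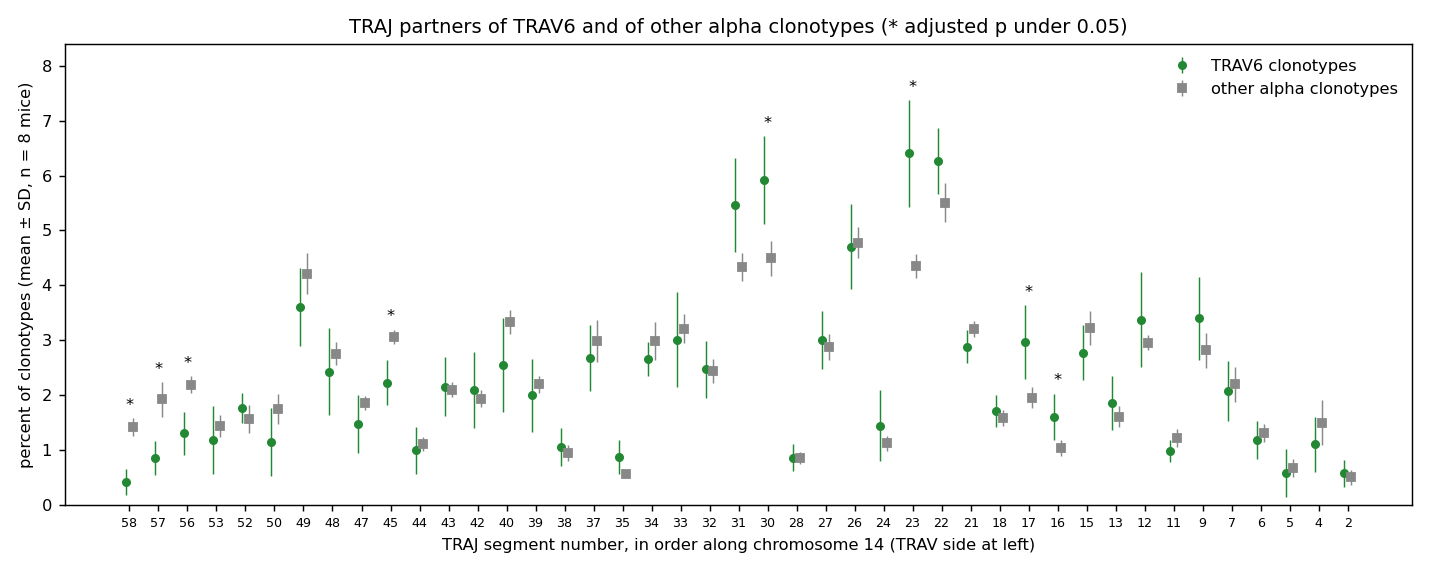
Share of clonotypes (y axis, percent, mean ± SD over 8 mice) with each TRAJ segment (x axis, segment number in chromosomal order, TRAV side at left) for TRAV6 and for all other α-chain clonotypes. TRAV6 lies below the others at TRAJ58 to TRAJ56 and above them at TRAJ30, TRAJ23, TRAJ17 and TRAJ16, and asterisks mark adjusted p under 0.05.

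By reads, the main partners were TRAJ30 with 560 reads, TRAJ23 with 471, TRAJ22 with 435, TRAJ26 with 367, TRAJ31 with 364 and TRAJ49 with 285. TRAV6–TRAJ30 had 53, 40 and 70 reads in the CTX mice and 90, 101, 55, 62 and 89 in the CTX/CD4 mice, which overlap. TRAV6–TRAJ23 had 51, 41 and 64 against 61, 74, 49, 52 and 79 reads. With edgeR on 343 pairs of V family and TRAJ, 0 of 37 TRAV6 pairs were called, against 0% of all pairs. At an unadjusted p under 0.05 there were 3 TRAV6 pairs and 19 pairs in all, and DESeq2 called 0. The 3 were TRAJ40, TRAJ30 and TRAJ11, each with an adjusted p of 0.845 by edgeR. TRAV6–TRAJ40 was the 1 tested TRAV6 pair whose groups were separated, against 0.875% of all pairs separated upward and 2.04% downward, with 13, 13 and 12 reads against 18, 28, 26, 16 and 37. TRAV6–TRAJ11 had 10, 8 and 6 reads against 7, 6, 110, 8 and 25, so its log2 fold change of 2.04 ± 0.89 (SE) rested on CTX/CD4 mice 3 and 5. Without the filter on low counts it was the 1 TRAV6 pair of 43 called by edgeR (adjusted p = 0.00167), against 0.512% of all 1172 pairs.

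TRAV6 CDR3s were longer than those of other α-chains. Their mean length was 13.9 residues ± 0.0485 (SD, n = 8 mice), against 13.6 ± 0.0228 for the other clonotypes and 13.4 ± 0.0405 for TRAV7. The within-mouse difference of 0.309 ± 0.0526 residues was positive in 8 of 8 mice (exact sign-flip permutation test, p = 0.00781, adjusted p = 0.0130). Compared within each TRAJ, it was 0.344 (exact p = 0.00781). CDR3s of 12 residues made up 8.19% ± 1.05 of TRAV6 and 14.4% ± 0.603 of other clonotypes, while those of 14 residues made up 34.9% ± 1.48 and 29.6% ± 0.717. TRAV6 length did not separate the groups, at 13.96 ± 0.0664 in CTX and 13.93 ± 0.0392 in CTX/CD4 mice (two-sided exact Mann–Whitney test, p = 0.571).

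**Figure D3:**
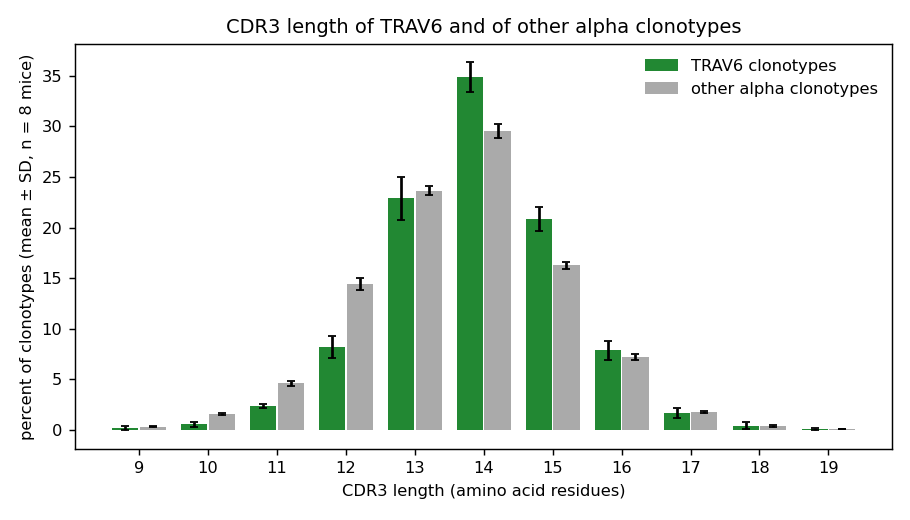
CDR3 length (x axis, amino acid residues) against the share of clonotypes (y axis, percent, bars are means and error bars SD over 8 mice) for TRAV6 and for all other α-chain clonotypes. TRAV6 has the smaller share at 12 residues, 8.19% against 14.4%, and the larger share at 14 residues, 34.9% against 29.6%.

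The number of bases at the joint assigned to neither segment did not differ detectably. By the positions in the files it was 2.23 ± 0.100 (SD, n = 8 mice) in TRAV6 and 2.21 ± 0.0253 in other clonotypes, a difference of 0.0111 ± 0.119 that was positive in 3 of 8 mice (exact sign-flip permutation test, p = 0.789). Those positions let an aligned segment run past its last exact match in 38.5% of TRAV6 clonotypes. Counted as bases matching neither germline end, the values were 3.29 ± 0.143 and 3.31 ± 0.0269 (exact p = 0.648).

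Taken as a whole, TRAV6 clonotypes were found in a second mouse, with the same V family and CDR3 nucleotides, less often than other clonotypes. The share was 18.4% ± 1.72 (SD, n = 8 mice) for TRAV6 and 24.0% ± 1.14 for the others, lower in 8 of 8 mice, and 25.7% ± 1.27 for TRAV7. By copy name, pooled over mice, it ran from 3.63% for TRAV6-3 and 4.49% for TRAV6D-3 to 28.4% for TRAV6N-7 and 28.9% for TRAV6D-6. TRAV6D-6 and TRAV6N-7, as named, were thus not shared less than other clonotypes. TRAV6-6 and TRAV6D-7, identical to them over 280 bases, stood at 16.4% and 9.68%, so these values do not show how each copy was shared. The family difference of −5.59 ± 1.86 percentage points passed the exact sign-flip permutation test (p = 0.00781, adjusted p = 0.0130), and it was −6.05 within each TRAJ (exact p = 0.00781). A shared sequence counts in every mouse that holds it, so the 8 values are not independent and these p-values do not allow for that. TRAV6 also had more clonotypes of a single read, 78.0% against 75.0%, and without those clonotypes the difference was −7.99 percentage points (exact p = 0.00781). Of the 4625 distinct TRAV6 nucleotide sequences, 4247 were in 1 mouse, 268 in 2 mice, 67 in 3 mice and 43 in 4 or more. Sharing within groups was close to that between them. Pairs of mice had 33.0 TRAV6 sequences in common within groups and 32.9 between groups on average, with Jaccard indices of 0.02584 and 0.02585 (exact permutation of the mice, p = 1).

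Widely shared sequences had fewer added bases. Of the 43 in 4 or more mice, 18 (41.9%) had 0 bases matching neither germline end, against 283 (6.66%) of the 4247 in 1 mouse, and the mean was 1.26 ± 1.43 (SD) against 3.64 ± 2.88 bases. These sequences share bases with one another, so no test was made. The most shared nucleotide sequences are shown for this reason, with capitals for bases matching neither germline end and the amino acid sequence as name.
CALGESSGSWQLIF: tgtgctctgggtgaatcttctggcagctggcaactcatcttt
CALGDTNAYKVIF: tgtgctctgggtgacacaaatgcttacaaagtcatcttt
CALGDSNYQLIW: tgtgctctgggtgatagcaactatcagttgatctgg
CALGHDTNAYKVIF: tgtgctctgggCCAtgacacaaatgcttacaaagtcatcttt
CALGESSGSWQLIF, which uses TRAJ22, was the 1 nucleotide sequence present in all 8 mice, with 18 reads in all and 0 unmatched bases. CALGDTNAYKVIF and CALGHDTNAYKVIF, with TRAJ30, and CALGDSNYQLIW, with TRAJ33, were each in 7 mice in the form printed, with 29, 24 and 9 reads. The CDR3 part of germline TRAJ30 lies at chr14:54189866-54189893 and reads tgacacaaatgcttacaaagtcatcttt.

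By amino acid sequence and TRAJ, 587 of 3992 TRAV6 clonotypes were in at least 2 mice, 24 in at least 6 and 3 in all 8. Of the 10 found in 7 or 8 mice, 4 used TRAJ30 and differed in 1 residue or in length between the TRAV6 start and DTNAYKVIF. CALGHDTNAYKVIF had the most reads, 74, from 6 nucleotide forms under 3 copy names. It had 2, 2 and 7 reads in the CTX mice and 18, 11, 8, 17 and 9 in the CTX/CD4 mice, so each CTX/CD4 mouse was above each CTX mouse. The means were 3.67 ± 2.89 and 12.6 ± 4.62 reads (SD), a log2 fold change of 1.94 ± 0.72 (SE) that did not pass edgeR's test over 209 amino acid clonotypes (adjusted p = 0.367).

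Its 3 main nucleotide forms encode the same residues and differ in the last base of the glycine codon before the histidine, and are shown for that reason with unmatched bases in capitals.
Form 1: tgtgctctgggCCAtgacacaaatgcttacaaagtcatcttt
Form 2: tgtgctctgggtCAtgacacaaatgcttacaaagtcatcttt
Form 3: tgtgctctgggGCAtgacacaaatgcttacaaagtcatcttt
In all 3 forms the last 2 unmatched bases, CA before tg, are the reverse complement of the first 2 bases of TRAJ30. Bases of this kind, called P nucleotides, arise when the hairpin at a J end is opened off centre. The forms had 24, 23 and 18 reads and were found in 7, 6 and 5 mice, and in CTX/CD4 mouse 1 the first form had 12 reads, while in mouse 2 the second had 8 and in mouse 4 the third had 8. The same ending GHDTNAYKVIF under other V families had 14 reads, with 3, 3 and 3 in the CTX mice and 1, 0, 2, 1 and 1 in the CTX/CD4 mice.

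The other widely shared TRAJ30 receptors overlapped between the groups. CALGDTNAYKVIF had 4, 6 and 7 reads against 6, 11, 9, 6 and 9. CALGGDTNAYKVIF had 2, 0 and 5 against 1, 14, 5, 3 and 5, and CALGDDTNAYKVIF had 2, 2 and 2 against 7, 8, 2, 0 and 11. Receptors of the form CALG, any residue, DTNAYKVIF together held 33.2% of TRAV6–TRAJ30 reads, with 13 residues seen at the variable place and 35 nucleotide forms. With TRAJ15, the widely shared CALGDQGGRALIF had 3, 4 and 2 reads against 1, 1, 1, 0 and 1, so each CTX/CD4 mouse was below each CTX mouse.

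**Figure D4:**
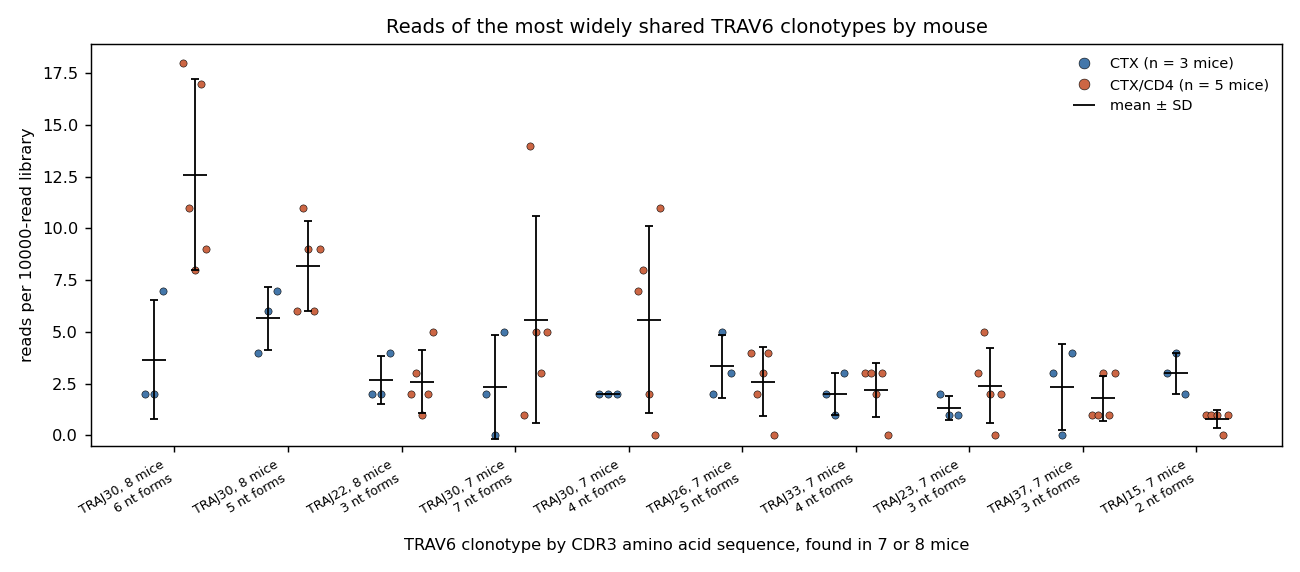
Reads per library (y axis) of the 10 TRAV6 clonotypes, by amino acid sequence and TRAJ, found in 7 or 8 mice (x axis, labelled by TRAJ, mice and nucleotide forms). Points are mice and black marks are group means ± SD. The leftmost, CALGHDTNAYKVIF, had 2 to 7 reads in CTX and 8 to 18 in CTX/CD4 mice, and the rightmost, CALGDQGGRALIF with TRAJ15, had 2 to 4 and 0 to 1.

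Among the 16 TRAV6 amino acid clonotypes with enough reads to test, 0 were called by edgeR, against 0% of the 209, and 2 had an unadjusted p under 0.05, as did 15 of the 209. DESeq2 also called 0. The 2 were separated upward between the groups, against 1.44% of all 209 separated upward and 1.44% downward. The second was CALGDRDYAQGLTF with TRAJ26, which was not found in the CTX mice and had 8, 1, 5, 3 and 1 reads in the CTX/CD4 mice. Both passed the filter of 3 reads in 3 mice through the CTX/CD4 mice, where they were high, so the filter favoured such separation and neither it nor the unadjusted p is support for a difference. An absence in a library allows up to 0.03% of its reads, counting error only. Both were singled out after their values were seen.

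Abundant TRAV6 clonotypes lay almost all in CTX/CD4 mice, and abundant clonotypes of the other families leaned the same way. Of 18 TRAV6 clonotypes with 10 or more reads, 1 was in CTX mouse 3 and 17 were in CTX/CD4 mice, with 3, 2, 2, 0 and 10 in mice 1 to 5. Without CTX/CD4 mouse 5 the count in that group was 7. As a share of TRAV6 reads they made up 0.619% ± 1.07 (SD, n = 3) in CTX and 8.21% ± 7.16 (SD, n = 5) in CTX/CD4 mice, and the groups overlapped, since CTX/CD4 mouse 4 and CTX mice 1 and 2 had 0 (two-sided exact Mann–Whitney test, p = 0.143). With 5 reads as the limit the difference was 14.04 percentage points and the groups were separated (exact p = 0.0357). Other α-chain clonotypes of 10 or more reads numbered 12, 12 and 14 in the CTX mice and 40, 19, 33, 61 and 92 in the CTX/CD4 mice. Their share of reads was 2.89% ± 0.222 against 12.4% ± 8.80, and it separated the groups (two-sided exact Mann–Whitney test, p = 0.0357). The gap between TRAV6 and the rest did not separate the groups (exact p = 0.786).

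**Figure D5:**
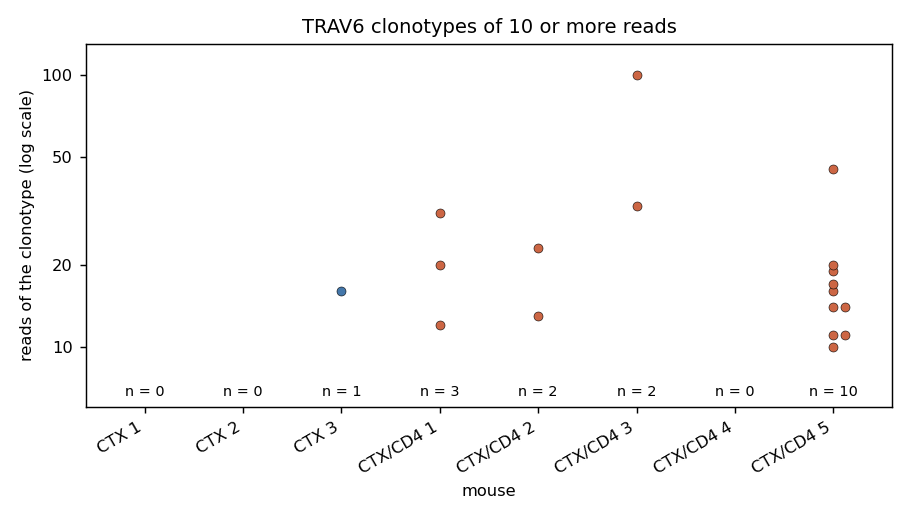
Reads (y axis, log scale) of every TRAV6 clonotype with 10 or more reads in each mouse (x axis), with their number under the points. The 1 such clonotype of the CTX mice had 16 reads, CTX/CD4 mouse 5 had 10 clonotypes, and the highest point is the 100-read clonotype of CTX/CD4 mouse 3.

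The most abundant clonotypes of the CTX/CD4 mice are shown because they differ in how the joint was made, with unmatched bases in capitals.
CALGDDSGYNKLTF: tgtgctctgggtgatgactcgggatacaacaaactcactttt
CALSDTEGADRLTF: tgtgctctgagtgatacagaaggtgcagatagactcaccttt
TRAV6D-6–TRAJ49: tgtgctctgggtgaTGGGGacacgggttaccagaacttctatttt
TRAV6D-6–TRAJ22: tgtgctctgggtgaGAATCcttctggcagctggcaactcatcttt
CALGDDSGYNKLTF (TRAV6N-7, TRAJ11) had 100 reads in CTX/CD4 mouse 3, 1.00% of its library (Wilson 95% confidence interval 0.823% to 1.21%), and 0 unmatched bases. It was found in no other mouse, although the germline encodes it whole. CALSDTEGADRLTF (named TRAV6N-7, TRAJ45) also had 0 unmatched bases, with 45 reads in CTX/CD4 mouse 5 (0.336% to 0.602%) and 6 reads over 3 other mice. Its start is that of germline TRAV6-5 and of the left-out TRAV6-7-DV9, not of TRAV6N-7, so by its CDR3 it cannot be assigned to the family as defined here rather than to that copy. The same holds for the 16-read clonotype of CTX mouse 3 (named TRAV6N-7, TRAJ49), the only abundant TRAV6 clonotype of the CTX mice. The TRAV6D-6–TRAJ49 clonotype had 31 reads in CTX/CD4 mouse 1 and 2 in mouse 2, and the TRAV6D-6–TRAJ22 clonotype had 23 in mouse 2 alone, each with 5 unmatched bases. The most abundant clonotype of the other mice had 7, 8 and 16 reads in CTX mice 1 to 3 and 8 in CTX/CD4 mouse 4, where it was a form of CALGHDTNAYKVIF.

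The 18 abundant clonotypes used 14 TRAJ segments and had 11 to 15 residues, and 8 were named TRAV6N-7 and 6 TRAV6D-6. Their unmatched bases ranged from 0 to 5, and 6 of the 18 had the same nucleotide sequence in another mouse. Those found in at least 2 CTX/CD4 mice and no CTX mouse were the TRAV6D-6–TRAJ49 clonotype, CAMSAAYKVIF (TRAV6D-3, TRAJ30), with 20 reads in mouse 1 and 1 in mouse 2, and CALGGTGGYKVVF (TRAV6N-7, TRAJ12), with 2 reads in mouse 1 and 11 in mouse 5. In all families, 36 of 93 abundant α-chain clonotypes of CTX/CD4 mouse 1 absent from the 6 other mice were in mouse 2. The first 2 TRAV6 clonotypes just named are among the 36, and whether they passed between the libraries was not tested. By that choice only mouse 2 could hold the 93, so the count cannot rank pairs of mice. A like count was made for TRAV6 clonotypes of 3 or more reads in CTX/CD4 mouse 1 and in no mouse outside the pair compared. Of these, 5 of 41 were in mouse 2, 3 of 39 in CTX mouse 3 and 2 of 38 in CTX mouse 1. At most 1 was in each remaining mouse. From CTX/CD4 mouse 2 to mouse 1 the count was 0 of 17.

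Shannon evenness, which is 1 when all clonotypes have equal reads, was lower in TRAV6 clonotypes of the CTX/CD4 mice. It was 0.986, 0.990 and 0.980 in the CTX mice and 0.960, 0.974, 0.921, 0.979 and 0.930 in the CTX/CD4 mice. The groups were separated by less than 0.001, between CTX mouse 3 and CTX/CD4 mouse 4. The means were 0.985 ± 0.00486 and 0.953 ± 0.0262 (two-sided exact Mann–Whitney test, p = 0.0357, the smallest possible, and adjusted p = 0.0893), with p = 0.0893 by the exact permutation test of the means. In the other α-chain clonotypes evenness was 0.980 ± 0.000761 and 0.956 ± 0.0228 (exact p = 0.0714).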

How the data were processed

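TCR α-chain libraries of 8 mice were analyzed. Per the labels, RNA was amplified by nested PCR with a SMARTer kit, and bcl2fastq and mm10 are named in the submitters' processing notes. The authors trimmed reads, aligned them in MiXCR (version not given in the sources used here), took out each chain in VDJtools and thinned every library to 10000 reads. The deposited values are counts of reads per clonotype. No molecular identifiers are named, so intervals (Wilson 95%) and the floor of 3 reads cover counting error only. β-chain files were not used.

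Per-mouse values were compared in Python 3.11.15 (numpy 2.4.6, pandas 2.3.3, scipy 1.17.1) by two-sided exact Mann–Whitney tests over 56 splits or exact sign-flip tests over 8 mice. Reads per V segment, pair of V family and TRAJ (10 reads in 3 mice) and amino acid clonotype (3 reads in 3 mice) were tested by edgeR 4.0.16 (R 4.3.3; TMM, quasi-likelihood, Benjamini-Hochberg), with DESeq2 1.42.0 as an alternative, on whole tables. The SE of an edgeR log2 fold change was its absolute value over the square root of the F statistic of the test. Scripts were tested on simulated data. Germline bases came from GRCm38.

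Members, lists and tests were chosen with earlier results of these data known. Named were all copies, the 6 TRAJ with most TRAV6 reads, each mouse's most abundant clonotype, the most shared ones, and up to 3 abundant in 1 group only; others were named after their values were seen. Alternatives covered single-read and abundant clonotypes, CDR3 ends, clonotype definition, the DV copy, the TRAV7 family, carried-over clonotypes, normalization, filter, block and each mouse left out.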

Additional observations from a re-analysis of the deposited data

Results flagged for a closer look

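In 4 of the 30 results examined, 1 of the 5 CTX/CD4 mice was far from the 4 remaining mice by Dixon's ratio, at its 95% limit of 0.71, and chance gives about 1 in 20. TRAV6-6 had 225 reads in CTX/CD4 mouse 2, against 109 in the next mouse (ratio 0.753). The same mouse had 488 reads of TRAV6-6 and TRAV6D-6 together. TRAV6-1 had 26 reads in CTX/CD4 mouse 1, against 37 in the next (ratio 0.733). TRAV6D-4 had 2 reads in CTX/CD4 mouse 5, against 12 in the next (ratio 0.714), and 2 reads is below the floor of 3. The difference in unassigned nucleotides between TRAV6 and other clonotypes was 0.136 in CTX/CD4 mouse 5, against −0.0274 in the next (ratio 0.786). The causes of these values were not tested.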

How the results depend on the processing

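Of the results compared, those on TRAJ number, CDR3 length and clonotypes found in another mouse kept their direction and p at or under 0.0156 in each alternative run, except that TRAJ number against TRAV7 turned to 1.28. With the TRAV6 DV copy added, the TRAJ difference shrank from −1.77 to −0.648, and against TRAV7 the length difference was 0.573 residues. Leaving out each mouse gave ranges of −1.87 to −1.66, 0.296 to 0.317 residues and −5.96 to −5.29 percentage points. The last range still counted sharing with the mouse left out. With sharing recomputed without CTX/CD4 mouse 2, the value was −5.28 percentage points.

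The TRAV6 share of clonotypes and the evenness passed at the smallest p that the design allows and lost it in other tests. By the exact permutation test of the means (1.19 percentage points, p = 0.0714; −0.0325, p = 0.0893) and with same-numbered mice paired as a replicate block (1.14 and −0.0337, exact p = 0.25, the smallest for 3 pairs) they did not pass. With any mouse left out the smallest possible p is 0.0571 or 0.0952, and the values were 0.976 to 1.37 and −0.0391 to −0.0244. Without clonotypes of 1 read, evenness differed by −0.0514 (exact p = 0.0714), the share of clonotypes by 2.10 (exact p = 0.0357, 1.19 with them), the share of reads by 2.18 (exact p = 0.143, 1.30 with them) and reads in abundant clonotypes by 14.5 points (exact p = 0.143, 7.59 with them). The TRAV6 share of reads reached 1.54 (exact p = 0.0357) without clonotypes of 10 or more reads and was 0.992 to 1.70 with each mouse left out. Reads in abundant clonotypes differed by 14.04 points (exact p = 0.0357) at a limit of 5 reads and by 5.32 to 9.64 with each mouse left out. The difference of TRAV6 from the rest in such reads, −3.46, became −4.75 (exact p = 0.0156) without CTX/CD4 mouse 3, in a range of −4.75 to −2.06.

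Differences near 0 changed sign. TRAV6 CDR3 length between groups was 0.138 without clonotypes of 1 read and 0.0106 weighted by reads, and −0.0597 to 0.00636 with each mouse left out. Unassigned nucleotides gave −0.00173 for CDR3s from C to F or W and −0.0250 by germline match, and −0.0168 to 0.03004 with each mouse left out. The Jaccard difference was 0.000325 by amino acids, 0.00121 as a share of the smaller set and 0.00185 without clonotypes of 1 read, and −0.00218 to 0.00144 with each mouse left out. Log2 fold changes turned for TRAV6-1 (−0.0385) and TRAV6-4 (−0.20) with the replicate block, and for TRAV6N-5 with DESeq2 (0.0131), no filter (0.0133) and no clonotypes of 10 or more reads (0.12). With each mouse left out they ran from −0.20 to 0.28 for TRAV6-1, −0.17 to 0.69 for TRAV6-4, −0.12 to 0.43 for TRAV6-6, −0.15 to 0.16 for TRAV6N-5 and −0.22 to 0.0285 for TRAV6N-6.

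No copy was called in any alternative. Without the filter on low counts, 1 TRAV6 pair was called, against 6 of all 1172 pairs. It was TRAJ11 (adjusted p = 0.00167 by edgeR), whose reads lie mostly in CTX/CD4 mouse 3. Same-numbered mice were not paired: their deviations over V segments correlated at −0.0995, 0.0392 and −0.0578. The germline-match, within-TRAJ and amino acid clonotype comparisons were chosen after seeing the data. The causes of these changes were not tested. At 10000 reads, 78.0% of TRAV6 clonotypes rest on 1 read, so absence from a mouse is weak evidence.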
